A study of Mus musculus with 4 samples.

Results

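This account follows the mouse p53 gene Trp53 and 7 genes tied to it, chosen by name: its inhibitors Mdm2 and Mdm4, and its transcriptional targets Cdkn1a, Ccng1, Tigar, Psrc1 and Sesn1. Each name matched 1 of the 47445 gene identifiers in the deposited tables, so all 8 genes were found. The libraries hold polyadenylated RNA of C57BL/6N embryos taken at the late 2-cell stage. Embryos of 2 libraries carried an siRNA against Uqcc3, which encodes an assembly factor of mitochondrial complex III. They were injected at 8 hpi (the abbreviation is the submitters') with 5 µM siRNA. Embryos of the other 2 libraries were the controls. Per the protocol these received a negative-control siRNA, also 5 µM and at 8 hpi, whereas their treatment label reads "none". The number of embryos per library is not given, and library names end differently in the 2 groups, so a batch marked by these endings cannot be told apart from the treatment. Females were 8 weeks old per the protocol, and the embryos taken for sequencing looked normal in shape.

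p53 is a transcription factor that is held low in unstressed cells because Mdm2, a ubiquitin ligase, marks it for degradation, with Mdm4 as a partner that also blocks its activity. When DNA or metabolism is disturbed, p53 protein accumulates and switches on genes that halt the cell cycle, repair DNA, adjust metabolism or start cell death. Mdm2 is itself a p53 target, which closes a feedback loop. Since p53 is controlled largely at the protein level, the level of Trp53 RNA is not a measure of p53 activity.

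The deposited values are FPKM, in which fragments are divided by transcript length and by library size. The bounds deposited with them imply totals of about 11.7 and 11.8 M fragments (M, mega) in siRNA replicates 1 and 2, and 16.7 and 18.9 M in control replicates 1 and 2. siRNA replicate 2 stood apart: its correlation with any other library, across tested genes on the log2 scale, was 0.624 to 0.651, whereas the other 3 reached 0.872 to 0.875 with their nearest library. It also had 9771 genes at 1 FPKM or more, against 11818 to 12202 in the other 3. Uqcc3 stood at 23.7 and 19.8 FPKM with siRNA, against 147 and 211 FPKM in controls. Markers of the 2-cell stage, led by Obox6, summed to 554 to 1042 FPKM with siRNA and 1616 to 2002 FPKM in controls, with 13 of 15 at 1 FPKM or more in at least 2 libraries. Oocyte transcripts, led by Dppa3, summed to 4543 to 10203 FPKM with siRNA and 12039 to 14286 FPKM in controls. Both sums lay below the controls in both siRNA libraries. Of the single 2-cell genes tested, 9 of 13 lay below both controls and 1 above. Among 15 oocyte genes 3 lay below and 3 above, and their median log2 fold change was -0.01. Over all tested genes the shares were 30.0% below and 8.60% above, and the median was -0.39. The part of these markers in the results below was not tested. Markers of cumulus and granulosa cells summed to at most 12.6 FPKM with siRNA and 16.1 FPKM in controls, with Amh and Fshr at 0 in all 4 libraries. Sperm and blood markers summed to 9.52 to 50.9 FPKM with siRNA and 30.7 to 47.0 FPKM in controls, with Akap4, Alas2 and Hbb-bs at 0 in all 4 libraries. Blastocyst lineage markers, led by Tfap2c, summed to 17.7 and 41.2 FPKM with siRNA, above both controls at 8.57 and 14.5 FPKM, with 5 of 12 at 1 FPKM or more in at least 2 libraries and Cdx2, Elf5, Krt8 and Sox17 at 0 in all 4. Fewer cells and less RNA per cell cannot be told apart in such bulk samples.

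The siRNA and control libraries did not overlap in 4 of the 8: Cdkn1a, Tigar and Psrc1 were lower in both siRNA libraries, and Ccng1 was higher in both. Of all tested genes, 30.0% lay below both controls in this way and 8.60% above. These are FPKM values, and the transcript length assigned to Tigar differed between libraries. Psrc1 reached 1 FPKM in the controls alone, so it was tested only through the libraries where it was high. The 250 bases before a transcription start of each of these 4 genes are shown. They were searched for 1 strict form of the sequence that p53 is known to bind. Capitals mark a 20-base stretch made of 2 adjoining copies of the 10-base p53 half-site consensus with at most 1 mismatch in all. Copies set apart by a gap, or with a mismatch at the core C or G, were not searched for. A window without capitals is thus not shown to lack a p53 site. The sequences are those of RefSeq in GRCm38.p6, the mm10 build, written in the direction of transcription. For Cdkn1a the upstream start of 2 is used, on the plus strand (chr17:29090729-29090978). For Ccng1 the window lies on the minus strand (chr11:40755287-40755536). Those of Tigar, on the minus strand (chr6:127109553-127109802), and of Psrc1, on the plus strand (chr3:108383588-108383837), hold no such stretch. Psrc1 has 2 annotated starts, and the one nearer to the gene start in the deposited tables is used.
Cdkn1a: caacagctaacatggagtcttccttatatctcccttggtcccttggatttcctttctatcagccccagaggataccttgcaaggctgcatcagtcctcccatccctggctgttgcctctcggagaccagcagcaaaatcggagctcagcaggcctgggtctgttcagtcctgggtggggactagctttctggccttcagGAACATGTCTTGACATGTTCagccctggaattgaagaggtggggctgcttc
Ccng1: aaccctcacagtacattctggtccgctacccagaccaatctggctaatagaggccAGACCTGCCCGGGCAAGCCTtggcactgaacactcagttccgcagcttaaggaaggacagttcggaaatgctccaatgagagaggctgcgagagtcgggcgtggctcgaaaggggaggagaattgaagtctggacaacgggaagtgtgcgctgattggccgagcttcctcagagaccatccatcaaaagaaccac
Tigar: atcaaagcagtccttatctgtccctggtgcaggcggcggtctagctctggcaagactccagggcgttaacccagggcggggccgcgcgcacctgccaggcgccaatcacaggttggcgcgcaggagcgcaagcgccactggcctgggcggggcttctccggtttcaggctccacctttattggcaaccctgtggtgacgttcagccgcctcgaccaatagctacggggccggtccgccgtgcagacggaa
Psrc1: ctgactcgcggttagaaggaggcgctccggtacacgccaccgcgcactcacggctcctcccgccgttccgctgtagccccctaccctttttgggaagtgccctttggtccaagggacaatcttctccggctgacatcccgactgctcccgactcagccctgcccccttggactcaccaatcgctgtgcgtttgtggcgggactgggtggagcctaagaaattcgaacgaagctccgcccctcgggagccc

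The 20-base stretch is rare: 19 of 32851 windows of this length, 0.0578%, hold one, and 2 of the 19 are those of Cdkn1a and Ccng1. In Cdkn1a it begins at position -51 from the upstream start and 2841 bases before the downstream start. In Ccng1 it begins at position -195 from the start. A single half-site with no mismatch occurs in 7.13% of all windows. Of the 12 windows annotated for the 8 genes, 5 hold a half-site, among them 1 each of Trp53, Mdm2 and Sesn1. The half-site consensus reads the same on both strands, so both were searched. The CCAAT box, CCAAT on either strand, occurs 3 times in the window of Ccng1, 3 times in that of Tigar and 1 time in that of Psrc1 (2 times in the window of its other start), and in 33.8% of all windows. These matches describe the letters in the windows only. The 2 genes that hold the stretch stood on opposite sides of the controls.

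**Figure D1:**
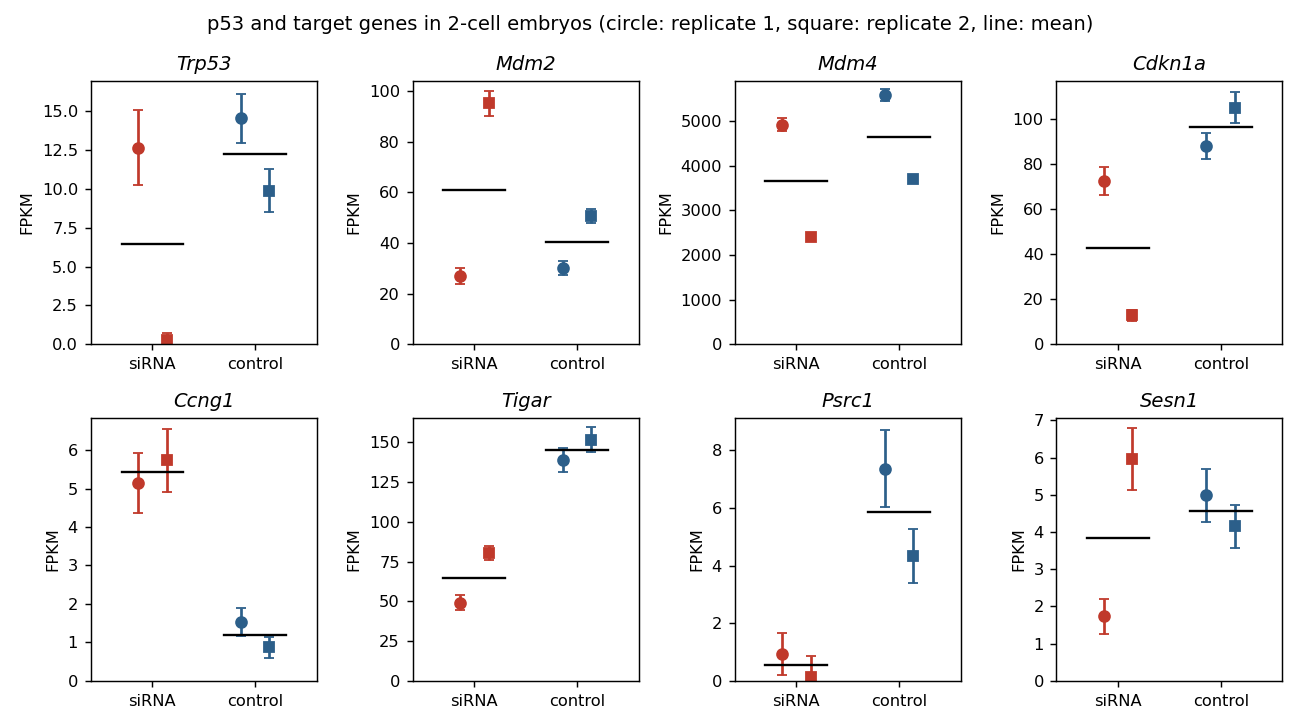
FPKM of the 8 genes in the 2 siRNA libraries (red, left) and the 2 control libraries (blue, right). Points are libraries, error bars reach the deposited bounds and black lines are group means; Ccng1 lies above, and Cdkn1a, Tigar and Psrc1 below, both controls in both siRNA libraries.

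In FPKM, Trp53 itself was at control level in one siRNA library and almost undetected in the other. It lies on chromosome 11 from 69580359 to 69591873 (ENSMUSG00000059552.13). Trp53 stood at 12.7 and 0.241 FPKM in siRNA replicates 1 and 2, against 14.5 and 9.89 FPKM in control replicates 1 and 2. The groups overlapped, because siRNA replicate 1 lay between the 2 controls. Read as counting error, the bounds imply 112 fragments there and 334 and 211 in controls. These would cover 757.9 bases there and 1375.8 and 1127.3 bases in controls. The place of siRNA replicate 1 between the controls thus depends on the length assigned in each library. The value in siRNA replicate 2 rests on 1 implied fragment, and its 95% exact Poisson interval, which covers counting error only, runs from 0.0493% to 10.8% of the control mean. The log2 fold change over both libraries was -1.66 (SE 1.28) and did not pass in limma, a moderated linear model fitted across all genes (adjusted p = 0.780). All fold changes here are on log2(FPKM + 1), a scale that understates changes of low genes. Without siRNA replicate 2 the log2 fold change of Trp53 was 0.07, and without siRNA replicate 1 it was -3.39. Each of these 2 fits holds 1 siRNA library and so no replicate of the treatment.

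Values under 1 FPKM, as in Trp53, were common in siRNA replicate 2 among genes of similar level in the other libraries. Of 1412 genes at 5 to 20 FPKM in each of the other 3 libraries, a range that holds Trp53, 303 (21.5%) lay under 1 FPKM there, and 217 rested on 1 implied fragment or none. For each other library, the genes were those at 5 to 20 FPKM in the 3 libraries besides it, so the gene sets differ. The share under 1 FPKM was 1.20% of 748 genes for siRNA replicate 1. It was 0.844% of 711 genes and 2.03% of 739 genes for control replicates 1 and 2. The 3 genes whose pattern over the 4 libraries was nearest to that of Trp53, among 4540 candidates at a mean of 10 FPKM or more, were Mtus2, Mocs2 and Pdss2. Their centred log2 values differed from those of Trp53 by a root mean square of 0.066 to 0.085. Mocs2, an enzyme subunit of molybdenum cofactor synthesis, stood at 17.8 and 0.570 FPKM with siRNA and 17.5 and 13.1 FPKM in controls. Pdss2, which acts in coenzyme Q synthesis, stood at 28.8 and 1.64 FPKM with siRNA, against 32.9 and 26.0 FPKM in controls. Mtus2 stood at 156 and 13.2 FPKM with siRNA and 163 and 129 FPKM in controls. Of the p53 family, Trp63 stood at 1.89 and 0.0866 FPKM with siRNA and 1.90 and 1.18 FPKM in controls, and Trp73 was too low to test.

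**Figure D2:**
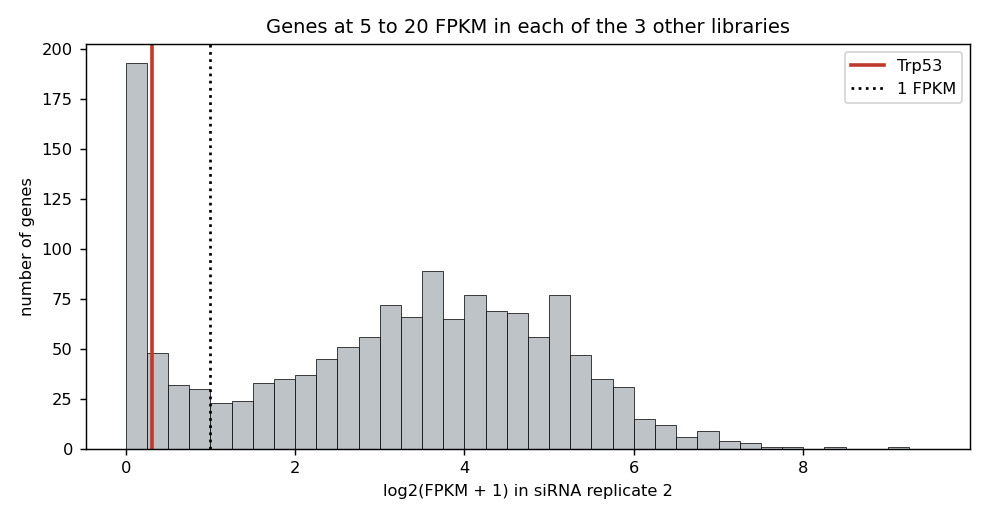
Histogram of log2(FPKM + 1) in siRNA replicate 2 for the 1412 genes at 5 to 20 FPKM in each of the other 3 libraries. The red line marks Trp53 and the dotted line 1 FPKM, below which 303 of the genes lie.

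The inhibitors of p53 differed between the 2 siRNA libraries as well. Mdm2 (ENSMUSG00000020184.14, chromosome 10 from 117688888 to 117710758) stood at 27.0 and 95.1 FPKM in siRNA replicates 1 and 2, against 30.1 and 50.7 FPKM in controls. One siRNA library thus lay below both controls and the other above both. Its log2 fold change of 0.37 (SE 0.805) did not pass (limma adjusted p = 0.924), with a difference of -0.52 for siRNA replicate 1 and of 1.26 for siRNA replicate 2. In siRNA replicate 2, Mdm2 was the highest of the 4 libraries and Trp53 the lowest.

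Mdm4 (ENSMUSG00000054387.13, chromosome 1 from 132959484 to 133030561) was listed at 4912 and 2402 FPKM with siRNA and 5580 and 3688 FPKM in controls. The groups overlapped, with siRNA replicate 1 between the controls, and the log2 fold change was -0.40 (SE 0.705, limma adjusted p = 0.904). The median of all tested genes was -0.39. The level of Mdm4 per length is uncertain. The fragments implied by its bounds would cover a transcript of 82.9 and 151 bases in the siRNA libraries and 66.9 and 98.4 bases in controls, whereas the shortest of its 14 annotated transcripts has 467 bases. The bounds may also hold uncertainty between transcripts, in which case the implied fragments are too few. Its processed copy Mdm4-ps, with which reads could be shared, stood at 23.6 and 6.51 FPKM with siRNA and 33.4 and 13.2 FPKM in controls.

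Among targets that act on the cell cycle, Cdkn1a and Psrc1 were lower and Ccng1 higher in both siRNA libraries. Cdkn1a encodes p21, the inhibitor of cyclin-dependent kinases through which p53 halts the cycle (ENSMUSG00000023067.13, chromosome 17 from 29090979 to 29100722). It stood at 72.5 and 12.9 FPKM with siRNA, against 88.2 and 105 FPKM in controls. Both siRNA values lay below both controls, but siRNA replicate 1 was at 75.1% of the control mean and siRNA replicate 2 at 13.4%. The log2 fold change was -1.60 (SE 0.875) and did not pass (limma adjusted p = 0.745). Without siRNA replicate 2 it was -0.40, and without siRNA replicate 1 it was -2.81. After median-of-ratios scaling or quantile normalization the 2 groups overlapped.

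Ccng1 encodes cyclin G1, a p53 target that recruits a phosphatase to Mdm2 (ENSMUSG00000020326.7, chromosome 11 from 40748552 to 40755311). It stood at 5.14 and 5.73 FPKM with siRNA, against 1.54 and 0.872 FPKM in controls. These values rest on 173 and 200 implied fragments with siRNA and on 69.8 and 38.8 in controls. The siRNA libraries lay close to each other and above both controls, with means of 5.44 ± 0.418 FPKM and 1.20 ± 0.471 FPKM (SD, n = 2 each), a ratio of 4.51. Its log2 fold change was 1.56 (SE 0.920) and did not pass over all genes (limma adjusted p = 0.745). Ccng1 was the one gene of the 8 that lay above both controls in both siRNA libraries. This held with TPM, with median-of-ratios scaling and after quantile normalization. The other alternatives that used all 4 libraries cannot change the order of the libraries. At the filter of 5 FPKM, Ccng1 was tested through the siRNA libraries alone.

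Psrc1 encodes a microtubule-binding protein of the mitotic spindle, described as a p53-regulated gene (ENSMUSG00000068744.12, chromosome 3 from 108383839 to 108388231). It stood at 0.939 and 0.150 FPKM with siRNA, against 7.36 and 4.33 FPKM in controls. Both siRNA values lay under 1 FPKM, on 6.6 implied fragments and on less than 1, whereas the controls had 123 and 87.5. Psrc1 passed the filter on low values through the controls alone. Its log2 fold change was -2.16 (SE 0.904), the lowest of the 8, with an unadjusted p of 0.0446 and an adjusted p of 0.745 in limma.

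Of the 2 targets with metabolic roles, Tigar was lower in FPKM in both siRNA libraries and Sesn1 was not. Tigar encodes a phosphatase that lowers fructose bisphosphate and so diverts glucose from glycolysis to the pentose phosphate pathway (ENSMUSG00000038028.9, chromosome 6 from 127085116 to 127109557). It stood at 49.2 and 80.3 FPKM with siRNA, against 139 and 152 FPKM in controls. Means were 64.7 ± 22.0 FPKM and 145 ± 8.92 FPKM (SD, n = 2 each), so the siRNA mean was 44.5% of the control mean. The log2 fold change was -1.19 (SE 0.619, limma adjusted p = 0.745). The bounds imply 421 and 1405 fragments with siRNA and 1348 and 1449 in controls. These would cover a transcript of 730.7 and 1478.8 bases with siRNA and 580.5 and 504.5 bases in controls. The low FPKM of siRNA replicate 2 thus depends on the length assigned in that library. As in Mdm4, the bounds may also hold uncertainty between transcripts. In Tigar the larger difference was in siRNA replicate 1, at -1.54, whereas siRNA replicate 2 was at -0.85, close to that library's median over all genes of -0.57.

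Sesn1 encodes sestrin 1, a stress-induced protein that restrains mTORC1 signalling (ENSMUSG00000038332.12, chromosome 10 from 41810574 to 41908424). It stood at 1.73 and 5.96 FPKM with siRNA, against 4.99 and 4.15 FPKM in controls. As in Mdm2, siRNA replicate 1 lay below both controls and siRNA replicate 2 above both. The log2 fold change was -0.35 (SE 1.01, limma adjusted p = 0.946).

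**Figure D3:**
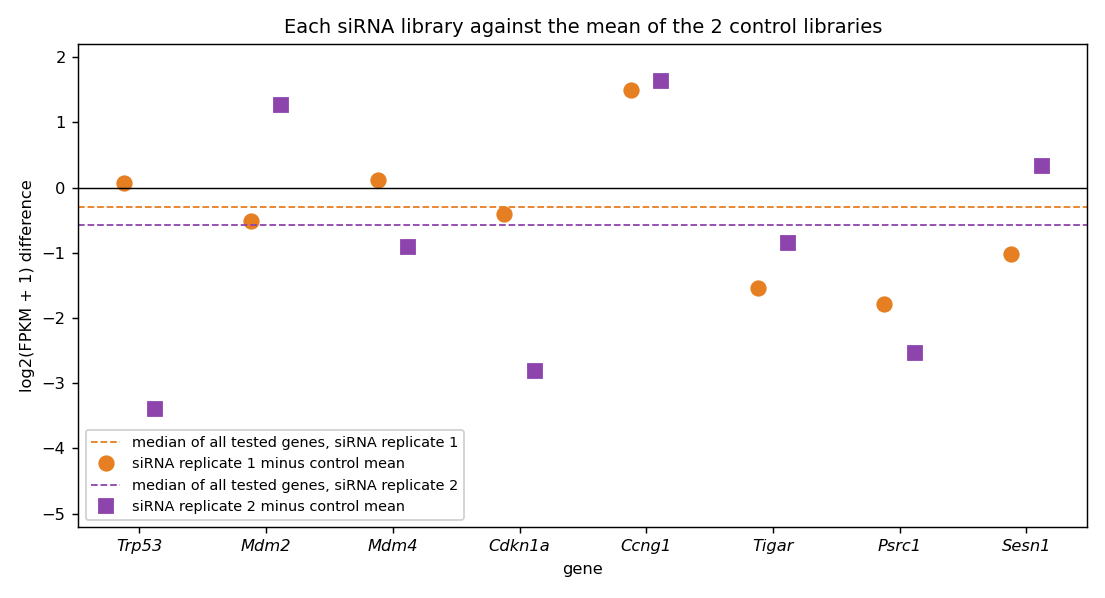
Difference in log2(FPKM + 1) of siRNA replicate 1 (orange circles) and siRNA replicate 2 (purple squares) from the mean of the 2 controls. Dashed lines are the medians over all tested genes; the 2 libraries lie on opposite sides of 0 in Trp53, Mdm2, Mdm4 and Sesn1.

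The counts over the 8 genes are given beside those over all genes tested. All 8 passed the filter of 1 FPKM in at least 2 libraries, as did 12390 genes in total. None of the 8 passed an adjusted p of 0.05 in limma, where 0 of all tested genes (0.00%) did. At an unadjusted p under 0.05 limma gave 738 of all genes (5.96%) and 1 of the 8, Psrc1, which had passed the filter through the controls alone, so that nothing is read from its p. In 3 of the 8, Psrc1 among them, both siRNA libraries lay below both controls, against 30.0% of all genes, and in 1 of the 8 both lay above, against 8.60%. The median log2 fold change of the 8, Psrc1 included, was -0.80, against -0.39 for all tested genes. For siRNA replicate 1 alone it was -0.46, against -0.30 for all tested genes, and for siRNA replicate 2 alone -0.88, against -0.57. Psrc1 passed the filter through the controls alone, so nothing is read from these medians of the 8. With Psrc1 left out, the middle value over both siRNA libraries was that of Mdm4, -0.40. Relative to the median of all genes, Ccng1 stood at 1.95, Mdm2 at 0.76, Sesn1 at 0.04, Mdm4 at -0.01, Tigar at -0.81, Cdkn1a at -1.22, Trp53 at -1.27 and Psrc1 at -1.77. Without siRNA replicate 1, 2 of the 8 passed in limma, Trp53 and Cdkn1a, both lower, against 9.68% of all genes that passed lower and 2.24% higher (11.9% in all). An unadjusted p under 0.05 was then reached by 4 of the 8, against 33.5% of all genes. siRNA replicate 2 alone lay below both controls in 5 of the 8 and above in 3, against 50.5% and 32.0% of all genes. Without siRNA replicate 2, 0 of the 8 passed, as did 0.00% of all genes, and Tigar was the one with an unadjusted p under 0.05, against 8.14% of all genes. siRNA replicate 1 alone lay below both controls in 5 of the 8 and above in 1, against 48.3% and 20.6% of all genes. Fits with 1 siRNA library hold no replicate of the treatment, so nothing is read from their p. A two-sided exact permutation test of 1 gene can give no p below 0.333 in this design. A p that misses the threshold does not show that the groups were alike.

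**Figure D4:**
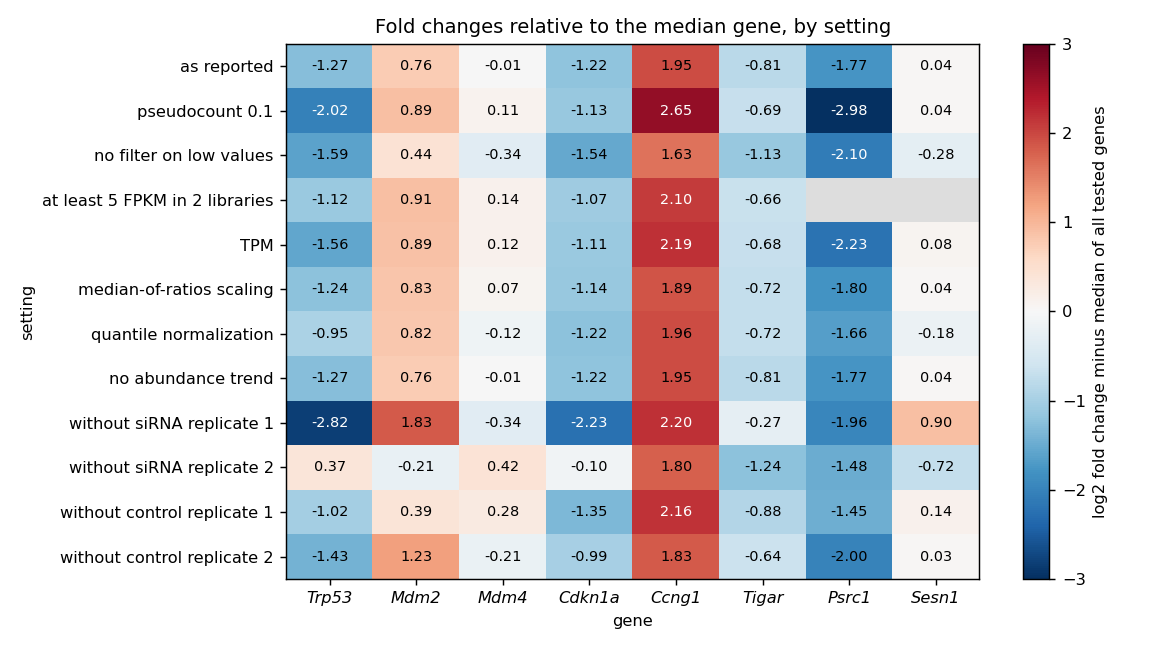
Log2 fold change of each gene, siRNA over control, minus the median of all tested genes in the same setting. Ccng1 stays between 1.63 and 2.65 over the alternatives, whereas Trp53, Mdm2, Mdm4 and Sesn1 change sign between settings; grey cells were not tested.

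Ratios of 2 of the genes within a library do not depend on the scaling between libraries. They do depend on the transcript length assigned to each gene in each library. Cdkn1a over Ccng1 was 14.1 and 2.25 with siRNA, against 57.3 and 121 in controls. Tigar over Ccng1 was 9.57 and 14.01 with siRNA and 90.4 and 174 in controls. Sesn1 over Ccng1 was 0.337 and 1.04 with siRNA and 3.24 and 4.76 in controls. These 3 ratios were lower in both siRNA libraries than in the controls, and they share Ccng1, which was higher in both. Mdm2 over Tigar was 0.549 and 1.18 with siRNA, against 0.217 and 0.334 in controls. In FPKM, Mdm2 thus stood higher relative to Tigar in both siRNA libraries. The implied transcript length of Tigar ran from 504.5 to 1478.8 bases over the libraries. Cdkn1a over Tigar was 1.47 and 0.161 with siRNA and 0.634 and 0.693 in controls, on opposite sides of the controls. The groups overlapped in the other 3 ratios computed. Mdm2 over Cdkn1a was 0.372 and 7.36 with siRNA and 0.342 and 0.482 in controls. Mdm2 over Trp53 was 2.13 and 394 with siRNA, against 2.07 and 5.13 in controls. Mdm4 over Mdm2 was 182 and 25.3 with siRNA and 185 and 72.7 in controls. The 8 pairs were chosen after their values were seen, and no test was made.

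The order of levels in FPKM also differed. That order depends on the transcript length assigned to each gene in each library. In controls the implied length of Tigar was 580.5 and 504.5 bases, whereas its coding transcript has 3651 bases. With siRNA, Mdm4 was listed highest, while Tigar, Mdm2 and Cdkn1a overlapped, and Trp53 overlapped with all below it. In controls the order was Mdm4, Tigar, Cdkn1a, Mdm2 and Trp53, with no overlap between neighbours, followed by Psrc1 and Sesn1, which overlapped, and Ccng1. Ccng1 was the lowest of the 8 in both controls and lay above Psrc1 in both siRNA libraries.

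The wider p53 network was read from 7 lists, of which 81 genes other than the 8 were tested. None of the 81 passed in limma over all genes. At an unadjusted p under 0.05, 4 were lower and 0 higher, against 5.21% and 0.743% of all genes. Of the 81, 25 had both siRNA libraries under both controls and 7 had both over them, where 30.0% and 8.60% of all genes did. These 2 shares are the background for the counts below and above given for each list here. For the 81, the median log2 fold change was -0.45, against -0.39 for all genes. Regulators of p53 had a median of -0.04 over 28 tested genes, with 10 below and 3 above both controls, and the median turned to between 0.34 and 0.42 with TPM, with median-of-ratios scaling or after quantile normalization. It was 0.22 without siRNA replicate 1, -0.39 without siRNA replicate 2, 0.07 without control replicate 1 and -0.19 without control replicate 2. Ubb, a polyubiquitin gene with near-identical copies, stood at 376 and 97.7 FPKM with siRNA and 868 and 1059 FPKM in controls. Rchy1, another ubiquitin ligase of p53, stood at 207 and 360 FPKM with siRNA and 237 and 277 FPKM in controls. Chek1, a checkpoint kinase, stood at 108 and 144 FPKM with siRNA, against 140 and 87.0 FPKM in controls. Rchy1 and Chek1 overlapped between groups, and Ubb was lower in both siRNA libraries.

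Cell cycle targets, a list that includes Cdkn1a, Ccng1 and Psrc1, had a median of 0.01 over 14 tested genes, with 3 below and 2 above. That median was 0.54 without siRNA replicate 1, -0.23 without siRNA replicate 2, -0.58 without control replicate 1, -0.12 without control replicate 2 and -0.40 at a filter of 5 FPKM, so its sign rests on single libraries and on the filter. Gadd45a, a growth arrest gene, stood at 8.18 and 27.2 FPKM with siRNA and 17.3 and 30.7 FPKM in controls, while Ckap2 and Ccng2 also overlapped between groups. Apoptosis targets had a median of -0.57 over 13 tested genes, with 6 below and 2 above. Siva1, a death-inducing protein, stood at 889 and 996 FPKM with siRNA and 745 and 1144 FPKM in controls. Rps27l, a ribosomal protein gene with a close paralog, stood at 2677 and 835 FPKM with siRNA and 1954 and 2255 FPKM in controls. Triap1, an inhibitor of apoptosis, stood at 32.1 and 32.6 FPKM with siRNA, against 60.7 and 38.7 FPKM in controls. Of these 3, Triap1 alone was lower in both siRNA libraries.

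DNA repair targets had a median of -0.84 over 9 tested genes, with 5 below both controls and 0 above. The median was -1.24 without siRNA replicate 1 and -0.45 without siRNA replicate 2. Pcna, the sliding clamp of DNA polymerases, stood at 69.4 and 78.6 FPKM with siRNA, against 123 and 115 FPKM in controls. Rrm2b, the p53-induced subunit of ribonucleotide reductase, stood at 87.5 and 43.5 FPKM with siRNA and 142 and 80.3 FPKM in controls. Pcna was lower in both siRNA libraries, as was Dda1, a ubiquitin ligase component that was on the list although it is no repair enzyme, at 48.6 and 27.7 FPKM with siRNA and 62.1 and 71.5 FPKM in controls. Metabolic and redox targets, a list that includes Tigar and Sesn1, had a median of -0.43 over 16 tested genes, with 3 below and 1 above, and of -0.25 without siRNA replicate 1 and -0.67 without control replicate 2. Gpx1, a glutathione peroxidase, stood at 112 and 57.1 FPKM with siRNA and 237 and 223 FPKM in controls. Sat1 and Dram2 overlapped between groups, and Dram2 stood at 0.180 FPKM in siRNA replicate 2, against 13.3 to 28.1 FPKM in the other 3 libraries. The remaining targets had a median of -0.24 over 5 tested genes, which turned to between 0.12 and 0.18 under the same 3 scalings, with Nupr1, a stress-induced nuclear protein, at 176 and 5.12 FPKM with siRNA and 72.4 and 106 FPKM in controls. Crip2 was at 5.37 and 1.15 FPKM with siRNA and 12.3 and 40.6 FPKM in controls, and Pvt1 overlapped. With 1 library left out, the median of these 5 genes ranged from -0.94 (without control replicate 1) to -0.32 (without siRNA replicate 2). The medians of the apoptosis, DNA repair and metabolic lists stayed below 0 under the 3 scalings, at -0.20 to -0.15, -0.46 to -0.41 and -0.08 to -0.02. The median of all genes was then -0.084 with TPM, -0.083 with median-of-ratios scaling and 0.012 after quantile normalization. The metabolic list lay above it with TPM (-0.016) and median-of-ratios scaling (-0.056), and below it after quantile normalization (-0.077).

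**Figure D5:**
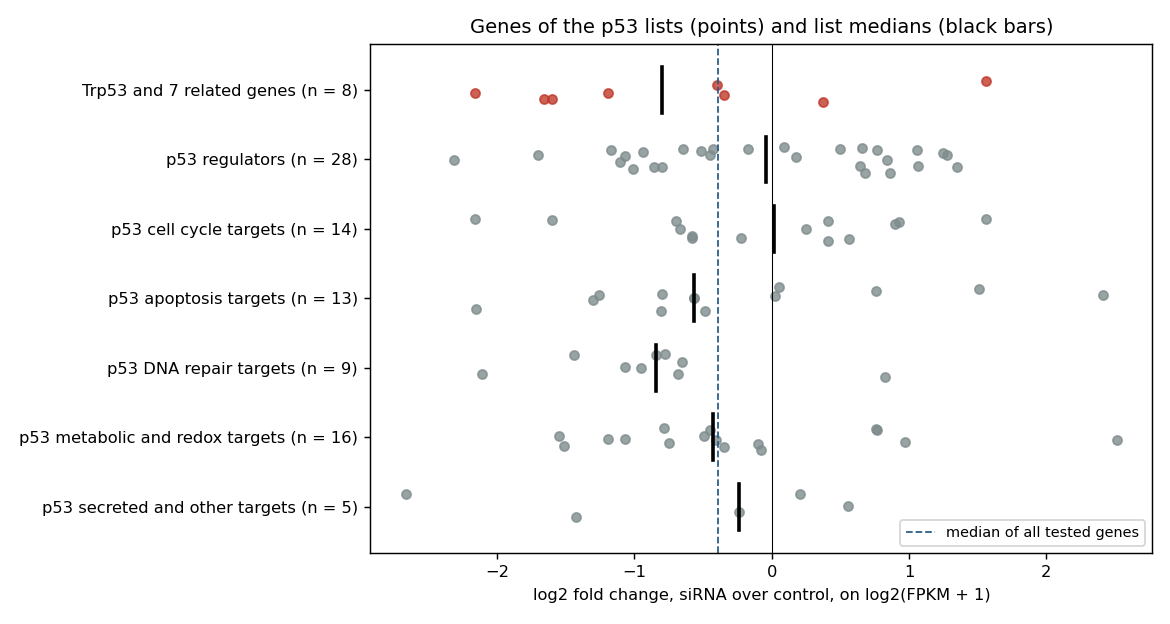
Log2 fold change (siRNA over control, on log2(FPKM + 1)) of the 8 genes (red) and of each tested gene in 6 lists (grey), with medians as black bars and the median of all tested genes as a dashed line. The medians of the 6 lists run from -0.84 (DNA repair targets) to 0.01 (cell cycle targets); the p53 family, with 2 tested genes, is not plotted.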

How the data were processed

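Per the file headers, each library has a deposited table that lists FPKM and its 2 bounds by gene. Tools given in the submitters' processing notes, with no order, are Cuffdiff 2.2.1 and Cufflinks 2.2.1, SAMtools 1.7, STAR 2.7.3a and Trim Galore 0.6.5, with the build mm10. Libraries were grouped by treatment label and numbered in accession order. The labels do not say that replicates came from separate animals, so p-values measure only how these libraries spread, which can be technical. Implied fragments are the squared ratio of FPKM to its error, taken as 0.5 times the distance to the upper bound, and intervals from them cover counting error only. Of low genes with 1 annotated transcript, 70.8% to 75.9% came out whole within 0.05. Genes at 1 FPKM or more in at least 2 libraries were tested on log2(FPKM + 1) in R 4.3.3 with limma 3.58.1 (two-sided, prior variance following abundance, Benjamini-Hochberg adjustment, threshold 0.05). The 2 genes whose estimate failed were left out. The test was also run on simulated data, where recovery of changes was required only at a spread far smaller than that of these libraries. That check does not show the power of the test here. Alternatives changed the pseudocount, filter, scaling, prior variance or libraries. The text names the 8 genes, Uqcc3, the 3 tested genes per list with the highest mean FPKM, and the 3 patterns nearest to Trp53. The members and lists were chosen with earlier results of these data known.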

Additional observations from a re-analysis of the deposited data

How the results depend on the processing

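Over 11 alternatives, all fold changes of Cdkn1a, Tigar and Psrc1 were below 0 and all of Ccng1 above 0 where tested. No alternative changed the transcript length assigned in each library, on which the low FPKM of Tigar in siRNA replicate 2 depends. Psrc1 had passed the main filter through the controls alone, so nothing is read from its direction. Of 86 values for the 8 genes, 79 kept their direction and their side of the threshold. That count is no measure of robustness. Changes of filter or prior variance leave a fold change as it was, and no gene passed at all except without siRNA replicate 1. Mdm4 turned to 0.033 after rescaling to TPM. With 1 library left out, Trp53 ranged from -3.39 to 0.070, Mdm2 from -0.52 to 1.26, Mdm4 from -0.92 to 0.11 and Sesn1 from -1.02 to 0.33. The genes that passed in limma then numbered 0 to 1477 over all genes and 0 to 2 among the 8, and calls came only without siRNA replicate 1, where siRNA replicate 2 is the lone siRNA library and is assumed to vary like the controls; the cause was not tested. Of the 8, 3 to 5 then lay below and 1 to 3 above all controls. Of all tested genes, 41.9% to 50.5% lay below and 16.4% to 32.0% above. The median of the 8, Psrc1 included, then ranged from -0.92 to -0.46. It was -0.39 with TPM, -0.43 with median-of-ratios scaling and -0.44 after quantile normalization. Those scalings brought the median of all genes to -0.08, -0.08 and 0.01. They also moved the genes below and above both controls to 2647 and 1630, 2458 and 1984, and 2322 and 2046, against 3723 and 1065 as reported. Genes at an unadjusted p under 0.05 numbered 477, 460 and 462 there, against 738 as reported. Psrc1 and Sesn1 were not tested at a filter of 5 FPKM. No paired analysis was possible because the labels carry no replicate numbers. Trp53 in siRNA replicate 2 and Psrc1 in both siRNA replicates rest on fewer than 10 implied fragments, which limits the precision of their fold changes.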
